A study of Mus musculus with 8 samples.

Results

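The array carried 1104 probes whose names begin with humanlincRNA, followed by a number, a plus or minus sign and P1, and all of them were hybridized here to labelled RNA of mouse salivary tissue. The set described below holds the 616 of them (55.8%) with a signal well above background on 2 or more of the 8 arrays. Of all 60930 probes other than controls, 47179 (77.4%) passed the same rule and were tested. The 616 probes comprised 300 with a plus and 316 with a minus sign and covered 436 of the 557 numbers in the names. The files do not state what the sign means, where in a genome a number lies, or which mouse transcript a probe measures. The probes are therefore called human-named here, by their names alone, and their nucleotide sequences were not used here.

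Long intergenic noncoding RNAs (lincRNAs) are transcripts that lie between protein-coding genes and encode no known protein. They are as a rule expressed at lower levels and in fewer tissues than mRNAs, and their sequences are less conserved between mammals than coding exons, although short stretches and the genomic neighborhood can be conserved. Several well-studied lincRNAs act on chromatin or on the transcription of nearby genes, and for most of them no function is known.

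The series profiled a mouse model of mucoepidermoid carcinoma, a salivary gland cancer that often carries the CRTC1-MAML2 fusion, in which a coactivator of the transcription factor CREB gains a transactivation domain. In the model on the FVB/J background, a CAG promoter drives a CRTC1-MAML2 transgene once Cre has removed a stop cassette flanked by loxP sites, and the MMTV-Cre transgene that supplies Cre acts in ductal cells of the gland, among other cells. The 8 samples were salivary glands of normal control littermates (N1, N2), tissue next to tumors (NAT1, NAT2), and tumors (T1 to T4). NAT1 and T1 came from one mouse, NAT2 and T2 from another, N1 and N2 were their littermates, and T3 and T4 came from other mice. By the study's description, the tumors came from mice carrying both MMTV-Cre and the fusion transgene, and the normal glands from littermates carrying MMTV-Cre alone. The study characterized mainly the first of its transgenic lines, and which line, age and sex the profiled mice had was not given in the sources used here. The source descriptions of NAT2 and T2 do not match their titles, and both were grouped by title and tissue.

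All values are scaled log2 signals, meaning the log2 intensity of a probe minus the 75th percentile of its array. That percentile ran from 6.67 to 7.13 in N, 7.48 to 7.56 in NAT, and 7.73 to 8.42 in T before scaling, so the T arrays were brighter at this point. No spot was saturated. Of the members' values, 2 were missing because the spot was an outlier (humanlincRNA0055-_P1 on NAT1 and humanlincRNA0479-_P1 on N1), and both probes were fitted without that array. The labelled tissues were not checked against cell type markers, since apart from 15 probes named by RefSeq accession the files do not pair probes with genes. The signal of a probe also depends on the probe itself, so levels are compared between samples and not between probes.

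Human-named probes were detected less often than the array as a whole, and more of them were detected in T than in N, as was so of all probes. On N1 and N2, 459 and 436 of the 1104 probes were well above background (41.6% and 39.5%). On NAT1 and NAT2 these were 467 and 541 probes (42.3% and 49.0%), and on T1 to T4 529, 566, 506, and 521 probes (47.9%, 51.3%, 45.8%, and 47.2%). All T arrays thus lay above both N arrays, while the range of NAT overlapped that of T. Over all probes the share was 59.9% and 57.7% in N, 64.2% and 66.1% in NAT, and 70.0% to 76.3% in T. The mean share thus rose by 7.50 percentage points from N to T for the human-named probes and by 13.7 for all probes. Probes of the same design with mouselincRNA names were detected at 41.8% to 53.5%, slightly above the human-named ones on each array. Of 15 probes named MM9NEGATIVE, 2 or 3 per array were also well above background.

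**Figure D1:**
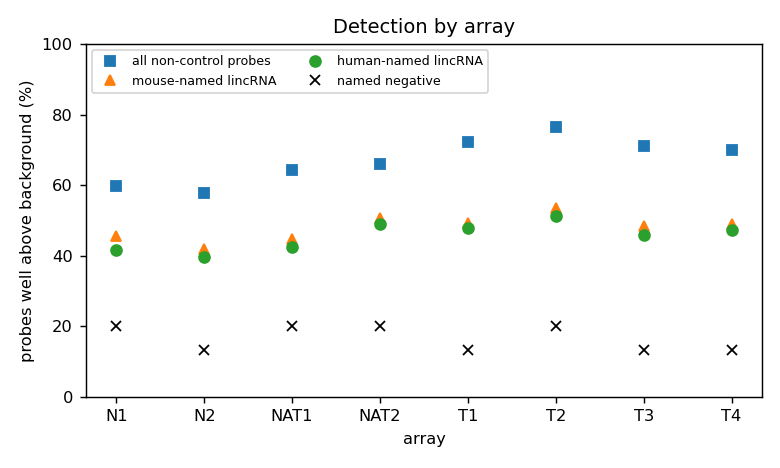
Share of probes well above background (y axis, %) on each of the 8 arrays (x axis) for the 1104 human-named probes, the mouse-named probes, all non-control probes, and the 15 probes named negative. Points are single arrays; the human-named probes lie between 39.5% and 51.3%, and all probes lie between 57.7% and 76.3%.

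Detection was mostly all or nothing. Of the 1104 probes, 340 (30.8%) were well above background on all 8 arrays and 402 (36.4%) on none, against 51.1% and 17.2% of all probes. The other probes were spread over 1 to 7 arrays, with 86 on a single array and 55 on exactly 2. These 2 sets lie on either side of the limit for inclusion and were dim in both cases: the highest unscaled log2 signal had a median of 3.94 (3.39 to 6.56) for the 86 probes left out and 4.08 (3.62 to 6.03) for the 55 kept. Probes detected on all 4 T arrays and on neither N array numbered 58 (5.25%, against 8.52% of all probes). The opposite pattern, on both N arrays and on no T array, was seen for 24 human-named probes (2.17%, against 0.954% of all probes), and 16 of these were also detected on both NAT arrays.

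The 2 probes of a number often behaved differently. Of 547 numbers with both a plus and a minus probe, both were members for 180, the plus probe alone for 118, the minus probe alone for 132, and neither for 117. For 104 numbers, 1 probe was well above background on all 8 arrays and the other on none. In 53 of these it was the plus probe that was detected, and in 51 the minus probe, so neither sign was favored by count. Both probes were detected on all 8 arrays for 58 numbers and on no array for 81.

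The human-named probes were mostly lower in T than in N. Of the 616 members, 221 (35.9%) were lower and 42 (6.82%) were higher in T by at least 2-fold at an FDR of at most 0.05, against 21.0% lower and 27.5% higher of all probes tested. The 263 called in either direction were 42.7% of the members, against 48.6% of all probes. Overlap between T and N was absent in 62.7% of the members and 65.8% of all probes. With the replicate number as a fixed block, 18 members (2.92%) were higher, against 21.2% of all probes. T3 and T4 are then alone in their blocks and add nothing to the contrast. N1 and N2 are matched to T1 and T2 by number only, as they came from other mice. The median log2 fold change of the members was -0.65, against 0.29 for all probes, a distance of -0.94. The sign of the member median depends on the scaling: it was 0.48 without scaling, where the median of all probes was 1.42, and -2.17 after subtraction of the 15 RefSeq-named probes, where the median of all probes was -1.23. The split moved with it. Without scaling, 199 members (32.3%) were higher and 104 (16.9%) lower, against 54.0% and 8.62% of all probes. With the RefSeq-named probes, 1 (0.162%) was higher and 457 (74.2%) lower, against 7.81% and 50.3%. With normexp background correction these were 1 (0.162%) and 162 (26.3%), against 15.1% and 16.1%. Subtracting 1 value per array shifts all probes alike and cannot change the distance between the medians. Normexp correction brought them closer, to -0.70 for the members and -0.39 for all probes. In whole tissue, fewer cells of a type cannot be told apart from less of an RNA per cell.

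The members lay below all probes at each level of detection. Of the 340 detected on all 8 arrays, 154 (45.3%) were called, against 48.3% of all such probes. These were 150 (44.1%) lower and 4 (1.18%) higher in T, against 24.9% and 23.4%, and their median was -0.90, against -0.04, a distance of -0.86. Of the 276 members detected on 2 to 7 arrays, 71 (25.7%) were lower and 38 (13.8%) were higher, against 13.5% and 35.6% of all such probes, and the median was 0.00, against 0.90, a distance of -0.90. Mouse-named lincRNA probes had similar counts, with 131 lower and 18 higher of 372 and a median of -0.74. A difference between the human-named and mouse-named sets was not tested.

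**Figure D2:**
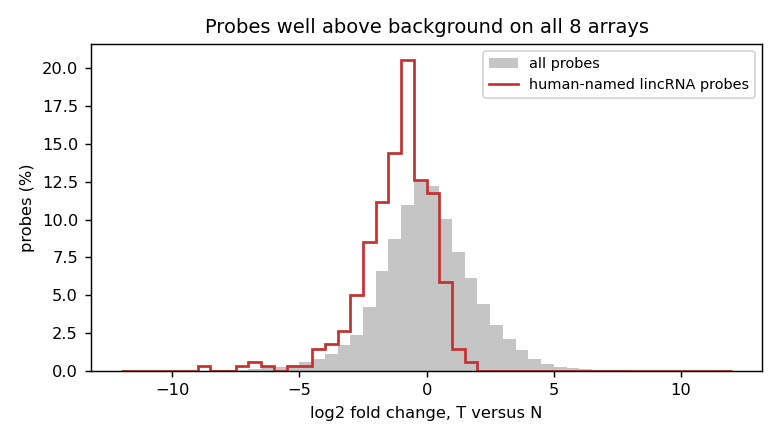
Log2 fold change, T versus N, of the scaled signal (x axis) against the share of probes per bin (y axis, %), for probes detected on all 8 arrays. The outline shows the 340 human-named members, with their median at -0.90, and the filled bars show all such probes, with their median at -0.04; these positions are relative to the 75th percentile and move with the scaling.

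The plot of fold changes shows the whole distribution of the fully detected members displaced to the left, with values from -8.75 to 1.90.

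The same contrast was visible in each array. The median scaled signal of the 616 members was -2.10 and -2.07 in N, -2.46 and -2.24 in NAT, and -2.98, -3.04, -2.86, and -2.61 in T1 to T4. All T arrays lay below all others, and both NAT arrays lay between N and T. Over all probes tested the medians stayed within -1.58 to -1.42. Before scaling, the members' medians overlapped between groups (5.03 and 4.60 in N, 5.02 and 5.33 in NAT, 4.96 to 5.38 in T). Scaled and unscaled values thus differ in what they show of the members' level as a whole, and their fall is a fall relative to the rest of the array. For single probes, 134 of the 221 called lower (60.6%) were also below both N arrays on all 4 T arrays without scaling, against 57.2% of all probes called lower, and the other 87 overlapped.

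**Figure D3:**
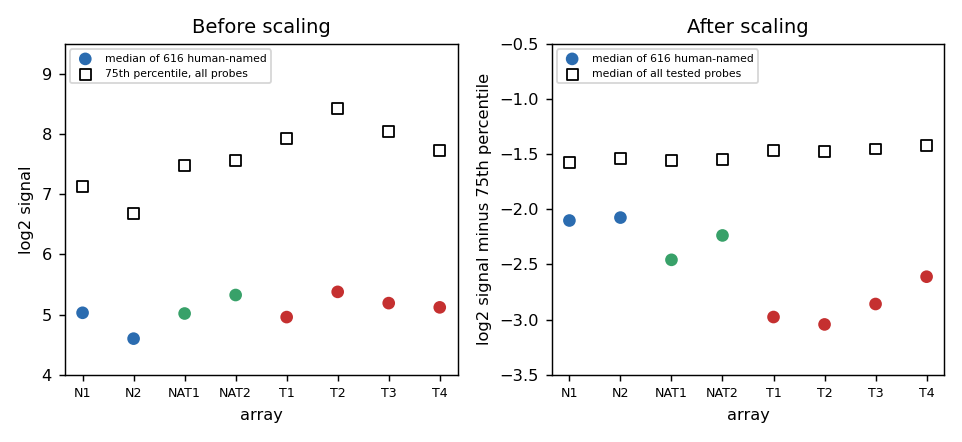
Median log2 signal of the 616 members (filled circles, y axis) on each array (x axis), before scaling beside the 75th percentile of all probes (open squares), and after scaling beside the median of all probes tested. Circles are blue for N, green for NAT, and red for T; the scaled member medians run from -3.04 to -2.61 in T and from -2.10 to -2.07 in N, and the unscaled ones overlap.

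Members were lower in T more often than all probes of the same signal, and the gap was widest in the brightest range. When the 340 members detected on all arrays were divided into 4 sets of 85 by mean scaled signal, which is no order of transcript levels, 36.5%, 30.6%, 41.2%, and 68.2% were lower in T from the dimmest set to the brightest. All probes within the same signal ranges were lower in 22.7%, 21.5%, 25.8%, and 27.2%. In the brightest set the median was -1.73 for the members and 0.26 for all probes, and 0 of the 85 members were called higher against 33.9% of all probes. Of the 20 brightest members, 18 were lower in T and 0 higher on the scaled values. The share of all probes in that narrower range was not counted.

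In all, 112 members were detected on all 8 arrays, called lower in T against both N and NAT, and had no T array within the range of the other 4. These were 32.9% of the 340 fully detected members, against 18.0% of all such probes. The largest fall was that of humanlincRNA0922-_P1. Its scaled log2 signal was 8.04 and 8.41 in N, 7.23 and 7.70 in NAT, and -1.58, -1.73, 2.61, and -1.38 in T1 to T4. T3 stood above the other 3 tumors by over 3 log2 units and still lay far below every N and NAT array. The log2 fold change was -8.75 (SE 1.13, FDR 0.000585), and -9.79 without T3. The plus probe of the same number was detected on all arrays and changed less, with values of -1.72 and -1.99 in N and -1.66, -3.07, -3.35, and -3.17 in T (log2 fold change -0.96, FDR 0.134).

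For humanlincRNA0384-_P1, N1 and N2 had 6.22 and 6.69, NAT1 and NAT2 had 3.85 and 6.19, and T1 to T4 had -1.06, -1.33, -0.51, and -0.82. NAT1 lay more than 2 log2 units below NAT2 and the N arrays, and the tumors were close together. The fold change was -7.39 on the log2 scale (SE 0.60, FDR 9.61e-05). The plus probe of this number was detected on N2 and NAT2 only, with values of -3.02 and -3.35 there.

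For humanlincRNA0147+_P1 the values were 6.07 and 6.48 in N, 5.80 and 5.59 in NAT, and -0.70, -0.63, 0.52, and -0.32 in T. The arrays of each group lay close together for this probe beside a fall of 6.56 (SE 0.39, FDR 5e-05). The minus probe of the number was not a member. The probe humanlincRNA2236+_P1 had 4.06 and 4.61 in N, 3.08 and 3.62 in NAT, and -0.90, -1.60, -0.56, and -0.97 in T (log2 fold change -5.34, SE 0.37, FDR 6.13e-05). These 2 members had the smallest SE relative to their fall among the 8 described.

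T1 was the lowest array for 3 others of the 8. For humanlincRNA2319-_P1 it had -4.44, while T2 to T4 had -1.90, -1.47, and -2.18 and the N and NAT arrays had 3.55 to 4.56 (log2 fold change -6.67, SE 0.76, FDR 0.000346). For humanlincRNA2178+_P1 it had -4.37, T2 to T4 had -1.91, -2.35, and -2.17, and the N and NAT arrays had 3.08 to 3.98 (log2 fold change -6.29, SE 0.67, FDR 0.000265). For humanlincRNA2350+_P1 it had -2.68, T2 to T4 had -1.63, -1.20, and -1.24, and N1 stood out at 4.47 beside 1.67 to 2.10 in N2 and NAT (log2 fold change -4.96, SE 0.68, FDR 0.000762). In each of these the gap between T and the other arrays was wider than the spread within T.

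The smallest of the 8 falls, that of humanlincRNA2208-_P1, was also the most even among tumors. It had 0.48 and 0.62 in N, -0.93 and 0.26 in NAT, and -3.76, -3.80, -3.68, and -4.07 in T (log2 fold change -4.37, SE 0.36, FDR 0.000105).

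**Figure D4:**
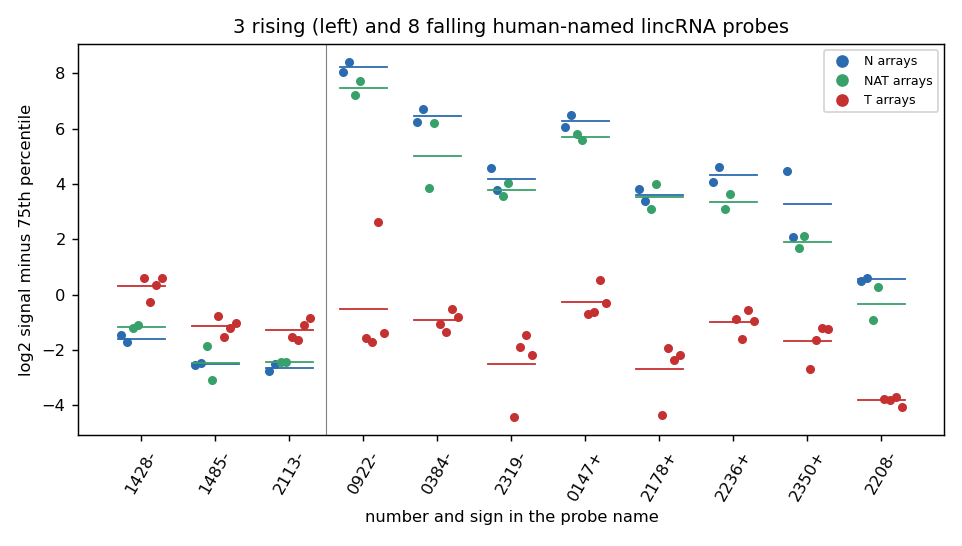
Scaled log2 signal (y axis) of the 3 rising and 8 falling members described in the text (x axis, number and sign of the name), 1 point per array in the order N1 to T4, with a line at each group mean. Points are blue for N, green for NAT, and red for T; in the members that fell, all 4 T arrays lie below every N and NAT array, and T3 stands apart at 2.61 for humanlincRNA0922-_P1.

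The 24 members detected on both N arrays and on no T array are described by their values, since this choice fixes the direction. A probe under background has only an upper bound in T, so the fold changes are bounds, with the dim group set per array at the higher of the probe's own value and the lowest signal well above background. The 4 with the largest bounds were all detected on both NAT arrays too. For humanlincRNA2106+_P1, the values were 0.90 and 0.91 in N, -0.09 and 0.87 in NAT, and -4.67, -5.27, -4.81, and -5.90 in T. On this scale it was at least 40.8-fold higher in N. Its unscaled values were 8.03 and 7.58 in N and 1.83 to 3.26 in T.

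For humanlincRNA1365-_P1, N had 0.75 and 0.33, NAT -0.76 and 1.07, and T -6.82, -5.11, -5.67, and -4.19 (at least 31.6-fold higher in N). For humanlincRNA1432-_P1, N had 0.58 and 0.44, NAT -0.94 and 0.52, and T -5.65, -5.06, -4.64, and -4.40 (at least 31.0-fold). For humanlincRNA1369-_P1, N had 0.52 and 0.17, NAT -0.99 and 0.79, and T -4.94, -5.73, -4.98, and -5.04 (at least 27.6-fold). In all 4 probes NAT1 was the lowest of the N and NAT arrays, and no T array came near them. The probes of opposite sign, humanlincRNA1369+_P1, humanlincRNA1432+_P1, and humanlincRNA2106-_P1, were detected on all 8 arrays and called lower, the first pair with log2 fold changes of -2.26 and -2.15. The fourth, humanlincRNA1365+_P1, was detected on T1, T2, and T4 only, with -4.90 and -5.16 in N and -4.68 to -3.37 in T, and was not called (FDR 0.102).

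Few members rose, and most of the 42 called higher were dim: 33 were not detected on either N array and 4 were detected on all 8. Over all probes, 7279 of the 12989 called higher were detected on all 8 arrays. The share of those not detected in N was not counted over all probes. Only 3 members met the same requirements as the 112 above in the upward direction (0.882% of the 340, against 16.6% of all such probes). The clearest was humanlincRNA1428-_P1, with -1.47 and -1.70 in N, -1.22 and -1.10 in NAT, and 0.61, -0.29, 0.34, and 0.58 in T. No tumor overlapped the other arrays, and the log2 fold change was 1.90 against N (SE 0.33, FDR 0.00215) and 1.47 against NAT (FDR 0.0101). It fell to 0.38 and was no longer called when the RefSeq-named probes set the scale.

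The probe humanlincRNA1485-_P1 had -2.55 and -2.46 in N, -1.84 and -3.08 in NAT, and -0.77, -1.53, -1.20, and -1.04 in T (log2 fold change 1.37, SE 0.40, FDR 0.0202). The probe humanlincRNA2113-_P1 had -2.75 and -2.52 in N, -2.45 and -2.42 in NAT, and -1.55, -1.63, -1.10, and -0.85 in T (1.35, SE 0.31, FDR 0.00779). These 2 calls were lost with normexp background correction (0.27 and 0.22), and with the RefSeq-named probes as the scale the sign turned (-0.15 and -0.17). Both were also lost with the replicate block (1.36 and 1.05) and without N1 (1.33 and 1.24), and the first without N2 (1.42).

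The 58 members detected in all tumors and in neither N array were likewise chosen in a way that fixes the direction. Their 4 largest bounds were small beside those of the 24 members above on the scaled values. Without scaling, the bounds of the 58 would be larger and those of the 24 smaller. For humanlincRNA1590+_P1, T1 to T4 had 0.02, -3.08, -1.04, and -1.82, NAT had -4.30 and -3.82, and N had -4.96 and -4.45 (at least 3.88-fold higher in T). T1 and T2 differed by about as much as T and N did for this probe. The bounds were at least 3.11-fold for humanlincRNA0296+_P1, at least 2.35-fold for humanlincRNA2416+_P1, and at least 2.12-fold for humanlincRNA0373-_P1. With normexp background correction, the log2 differences of the 4 were between 0.00 and 0.51.

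The 5 members with the highest mean signal were all lower in T, by 1.71 to 2.15 log2 units. The highest of them, humanlincRNA2330+_P1, had 7.97 and 7.70 in N, 6.96 and 7.54 in NAT, and 6.14, 4.96, 5.88, and 5.76 in T (log2 fold change -2.15, SE 0.38, FDR 0.00251). The others were humanlincRNA2296+_P1 (-1.71, FDR 0.0141), humanlincRNA0847-_P1 (-1.97, FDR 0.00291), humanlincRNA2159-_P1 (-2.02, FDR 0.00324), and humanlincRNA0318-_P1 (-1.92, FDR 0.00312). In 5 of 5, N1 was the highest and T2 the lowest array on the scaled values. Before scaling, NAT2 was the highest for humanlincRNA2330+_P1, humanlincRNA2296+_P1, and humanlincRNA0847-_P1. The lowest was then T4 for humanlincRNA2296+_P1 and T1 for humanlincRNA0318-_P1. Without scaling, the calls of humanlincRNA0318-_P1, humanlincRNA0847-_P1, humanlincRNA2159-_P1, and humanlincRNA2296+_P1 were lost (-0.79, -0.84, -0.88, and -0.57), and humanlincRNA2296+_P1 was also not called without N1 (-1.30) or with the replicate block (-1.72). The plus probe humanlincRNA0318+_P1 shares its number with the last of these, and both were bright and fell, with the plus probe at 5.56 and 5.16 in N and 3.01 to 3.72 in T (log2 fold change -1.91, FDR 0.00238).

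The steadiest members detected on all arrays were humanlincRNA2438-_P1 (SD over the 8 arrays 0.109, values -3.09 to -2.77), humanlincRNA0663-_P1 (SD 0.141, -2.01 to -1.65), and humanlincRNA1396+_P1 (SD 0.166, 2.62 to 3.14). The median SD of the 340 such members was 0.60. Their steadiness holds on the 75th percentile scale, and without scaling they differed by 1.30, 1.08, and 1.03 log2 units between T and N.

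Changes of the plus and minus probes of a number did not track each other. Across the 180 numbers with both probes among the members, the log2 fold changes, T versus N, correlated with Pearson r 0.02 and Spearman rho -0.03, a description across probes that share the same arrays. Both probes were lower for 23 numbers, both were higher for 3 (humanlincRNA1160, humanlincRNA1468, and humanlincRNA1972), 1 of them was called for 84, neither was called for 61, and the calls were opposite for 9. The median absolute difference within a number was 1.56 log2 units, and 118 of the 180 differed by at least 2-fold. Among the 58 numbers with both probes detected on all 8 arrays r was -0.12, rho was -0.09, and 34 differed by at least 2-fold.

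In the 58 numbers with both probes fully detected, 10 had both lower, 0 both higher, and 1 opposite calls. That number was humanlincRNA1428, whose minus probe is the clearest rise above. Its plus probe had -0.06 and -0.34 in N, -1.22 and 0.41 in NAT, and -2.74, -2.40, -2.63, and -2.82 in T (log2 fold change -2.45, SE 0.44, FDR 0.00248). The plus probe was thus higher in N and the minus probe higher in T, each with no overlap between N and T.

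**Figure D5:**
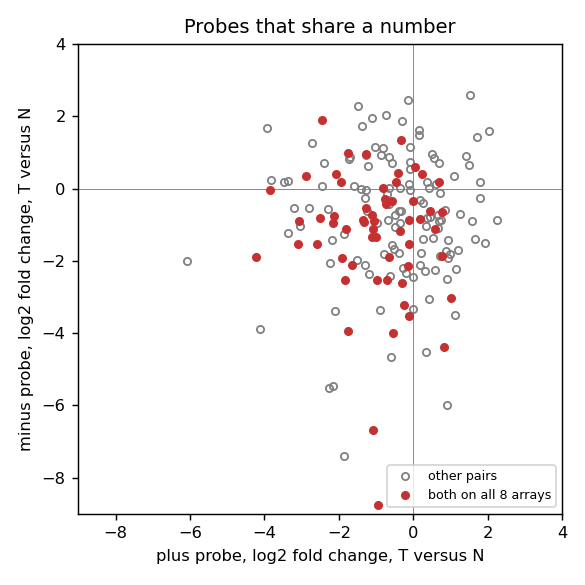
Log2 fold change, T versus N, of the plus probe (x axis) and the minus probe (y axis) for each number with both probes among the members. Each point is 1 number, and the 58 with both probes detected on all 8 arrays are filled; the points do not follow the diagonal (r 0.02 over 180 numbers), and humanlincRNA1428 lies at -2.45 and 1.90.

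Against NAT the picture was the same in direction and smaller. Of the 616 members, 173 (28.1%) were lower and 26 (4.22%) were higher in T, against 15.9% and 20.5% of all probes, and the 199 called were 32.3%, against 36.5%. Overlap between T and NAT was absent in 51.6% of the members and 56.1% of all probes. With the replicate number as a fixed block, in which NAT and T of a mouse are paired, 130 members (21.1%) were called, against 24.4% of all probes, 8 of them higher. T3 and T4 add nothing to the contrast in that fit. Of the 340 fully detected members, 118 (34.7%) were lower and 5 (1.47%) higher, against 18.6% and 17.3%. The median log2 fold change was -0.39, against 0.24 for all probes, and it was 0.12 without scaling, against 0.75. This comparison shares the T arrays with the previous one, and 165 members (26.8%) were called lower and 19 (3.08%) higher in both, against 15.4% and 19.1% of all probes. Without NAT2 the count of called members was 98 (15.9%), and the share of all probes called fell likewise, to 16.7%. The 26 higher were 10 without NAT2 (1.63%, against 8.51% of all probes), 12 without T3 (1.95%, against 15.9%), and 17 without T1 or T4 (2.76%, against 17.0% and 19.3%). The split was 76 higher and 107 lower without scaling, against 33.0% and 9.39% of all probes, 2 and 377 with the RefSeq-named probes, against 6.37% and 39.1%, and 1 and 109 with normexp correction, against 12.2% and 10.6%.

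Most members varied little among the tumors. The range over T1 to T4 had a median of 0.77 log2 units in the 340 members detected on all arrays. In 17 of them the tumors differed by at least 4-fold, and T1 was the lowest tumor in 8 of these. A difference of at least 16-fold was seen in 2 members, humanlincRNA0922-_P1 and humanlincRNA1692+_P1. The latter had 2.40 and 1.81 in N, 1.71 and 1.54 in NAT, and -3.94, 0.74, -3.89, and -0.92 in T1 to T4. All 4 tumors lay below the N and NAT arrays, T2 by less than 2 log2 units and T1 and T3 by more than 5 (log2 fold change -4.10, SE 1.24, FDR 0.0245).

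No member was called between NAT and N (0 of 616, with 0.0% of all probes called), and the lowest FDR by limma was 0.88. At an unadjusted p of under 0.05 there were 21 members (3.41%), against 4.23% of all probes. The members' median was -0.23, against -0.02 for all probes, and was 0.39 without scaling, against 0.59. It also rested on single arrays, being -0.065 without NAT1 and -0.42 without NAT2. Over all 616 members the groups did not overlap for 42 higher and 171 lower (34.6%), against 34.3% of all probes tested. Of 380 members detected on all 4 N and NAT arrays, 13 (3.42%) lay higher and 138 (36.3%) lower in NAT with no overlap between the groups, against 12.3% and 22.5% of all such probes. In either direction this was 39.7%, against 34.8%.

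Among these 380 members, the largest differences without overlap, none of them called, are given as values. Lower in NAT were humanlincRNA0691-_P1 (-1.99 and 0.46 in N, -2.76 and -2.21 in NAT), humanlincRNA0384-_P1 as given above, and humanlincRNA1894-_P1 (-2.07 and -1.59, against -3.57 and -2.80). Higher in NAT were humanlincRNA0312-_P1 (-2.34 and -2.59, against -1.46 and -2.08), humanlincRNA1347+_P1 (-3.34 and -3.29, against -2.99 and -2.41), and humanlincRNA2381+_P1 (-0.95 and -0.49, against -0.29 and 0.04). For humanlincRNA0691-_P1 the 2 N arrays differed by more than the groups did.

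Among the members, the 2 NAT arrays differed from each other more than the N arrays did. Members at least 2-fold apart numbered 137 between NAT1 and NAT2 and 82 between N1 and N2. Of the 340 fully detected members these were 45 and 17. The same counts were not made over all probes. NAT1 was below NAT2 in 256 of the 340 fully detected members (75.3%), against 53.6% of all such probes. In 3 members, looked for after the values were seen, NAT1 was instead at least 16-fold above all 7 other arrays. These were humanlincRNA0498-_P1 (7.28 on NAT1, -2.94 to -0.18 elsewhere), humanlincRNA1364+_P1 (5.82, and -4.63 to -1.80 elsewhere), and humanlincRNA1172+_P1 (3.44, and -3.22 to -1.92 elsewhere). They were 0.487% of the members, against 0.165% of all probes tested (78 probes), and 0 members stood apart in this way on any other array. The cause was not tested.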

How the data were processed

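Total RNA of 8 mouse samples was depleted of rRNA, amplified with random priming, labelled with Cy3 and hybridized to one-color Agilent arrays, per the labels. The authors deposited scanner output from Agilent Feature Extraction 11.0.1.1 (version from the submitters' processing notes) as spot intensity, corrected for background by that software, with no normalization across arrays, and with flags for spots well above background, saturated spots and outliers. The authors also deposited a log2 table of 42830 probes (524 human-named), normalization not given in the sources used here. Headers name mm9 as the design's build.

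Control and outlier spots were left out, spots of a probe were averaged as log2 intensity, and each array's 75th percentile was subtracted. The limma package 3.58.1 (R 4.3.3) was fitted to all 3 groups for the 47179 probes that passed the detection rule, and p-values were adjusted over all of them by the Benjamini-Hochberg method. A call required a 2-fold change and an adjusted p (FDR) no higher than 0.05. The code was tested on simulated data. Python 3.11.15 was used for summaries and plots. Precision is limited by how few arrays there are.

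The members, lists and tests were chosen with earlier results of these data known. Named were the 8 largest rises and falls among members detected on all arrays, called against N and NAT and without overlap of T with the others, the 5 brightest, the 3 steadiest, the 3 largest rises and falls between NAT and N without overlap among members detected on all N and NAT arrays, the 4 largest bounds for probes detected in T and not N or in N and not T, and any of these with an outlying tumor. Both probes of a number, and members standing apart on 1 array, were added after their values were seen.

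NAT1 and T1, and NAT2 and T2, are paired by mouse in the labels and the paper. Their deviations from the group means correlated at -0.0949 and -0.248 across probes. The alternatives were normexp correction (offset 50), quantile or median scaling, no scaling, other filters, the deposited table, only the arrays compared, the replicate number as a fixed or random block, each array left out, another variance shrinkage, a stricter FDR, and the methods' t-test. Scaling to the 15 RefSeq-named probes and the row of arrays on the slide were chosen after seeing the data.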

Additional observations from a re-analysis of the deposited data

Results flagged for a closer look

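Among the members named by the rules given above, 3 had a tumor array far from the other 3, by the gap to the nearest array over the group's whole range. These were 3 of 34 groups examined, and chance gives about 1 in 20. Probes added later for sharing a number were not examined, and T1 of humanlincRNA0922+_P1 also stood far above the other tumors. For humanlincRNA0922-_P1, T3 had 2.61 and the other tumors had -1.73 to -1.38 (gap over range 0.919). For humanlincRNA1369-_P1, T2 had -5.73 and the others had -5.04 to -4.94 (0.874), all of them under background. For humanlincRNA1894-_P1, T2 had -5.81, also under background, and the others had -3.82 to -3.62 (0.91).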

How the results depend on the processing

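Among the single probes named, 621 values kept direction and call, 30 lost the call, 5 gained it and 6 reversed. Reversed were humanlincRNA0663-_P1 (1.08), humanlincRNA1396+_P1 (1.03), and humanlincRNA2381+_P1 (1.01) without scaling, and humanlincRNA1485-_P1 (-0.15), humanlincRNA2113-_P1 (-0.17), and humanlincRNA2438-_P1 (-1.35) with the RefSeq-named probes as the scale. For T versus N, the 263 members called became 163 with normexp correction (26.5%, against 31.2% of all probes). With detection on all 8 arrays they were 156 of 340 tested (45.9%, against 49.4%). With the RefSeq-named probes they were 458 (74.4%, against 58.1%), where the members' share was the larger. The 42 higher became 1, 4, and 1 under these (0.162%, 1.18%, and 0.162%, against 15.1%, 24.0%, and 7.81% of all probes). They became 199 without scaling (32.3%, against 54.0%) and 23 at an FDR of 0.01 (3.73%, against 17.8%). In the deposited table they were 21 of 524 (4.01%, against 25.1%). The 221 lower became 104 without scaling (16.9%, against 8.62%) and 457 with the RefSeq-named probes (74.2%, against 50.3%). For T versus NAT, the 199 called became 110 with normexp correction (17.9%, against 22.9% of all probes) and 110 at an FDR of 0.01 (17.9%, against 19.5%). They became 114 by the methods' t-test with adjusted p-values (18.5%, against 20.3%) and 379 with the RefSeq-named probes (61.5%, against 45.4%). With detection on all arrays they were 123 of 340 (36.2%, against 37.5%). The 26 higher in T versus NAT became 5 at an FDR of 0.01 (0.812%, against 10.1% of all probes). In the deposited table they were 13 of 524 (2.48%, against 18.4%). The methods' t-test without adjustment called 4 members between NAT and N (0.649%, against 0.661% of all probes).

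The member median for T versus N became 0.48 without scaling, -0.90 with detection on all arrays, -0.82 in the deposited table, and -2.17 with the RefSeq-named probes. With normexp correction it was -0.70, against -0.39 for all probes. For T versus NAT it became 0.12, -0.63, and -1.53 without scaling, with detection on all arrays and with the RefSeq-named probes. Normexp correction gave -0.36 there, against -0.13 for all probes. For NAT versus N it became 0.39 without scaling, -0.40 with no filter, and -0.62 with the RefSeq-named probes. With the replicate number as a fixed block, 206 members (33.4%) were called in T versus N, against 38.5% of all probes. Of the 206, 18 were higher. In T versus NAT 130 were called (21.1%, against 24.4% of all probes), and in NAT versus N 0. With a random block the counts for T versus N, T versus NAT and NAT versus N were 258, 197, and 0. Among the named probes the fixed block ended the calls of humanlincRNA1485-_P1, humanlincRNA2113-_P1, humanlincRNA2296+_P1, and humanlincRNA2416+_P1. Without single arrays, 203 to 260 were called in T versus N (29 to 46 higher, 174 to 225 lower, median -0.73 to -0.56). For T versus NAT they were 98 to 195 (median -0.57 without NAT1 to -0.27), 98 being without NAT2. For NAT versus N the member median ran from -0.42 without NAT2 to -0.065 without NAT1. Without NAT2, NAT1 is alone and assumed to vary like the other groups. The 3 members that stood apart on NAT1, humanlincRNA0498-_P1, humanlincRNA1172+_P1, and humanlincRNA1364+_P1, then had log2 fold changes of 8.27, 5.94, and 7.80. The cause of these changes was not tested. Signals near background limit what can be read from dim probes, above all the members detected on few arrays.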
